A study of Mus musculus with 6 samples.

Results

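The genes described here are the cyclins that act in the G1 phase of the cell cycle, the kinases they bind, and a phosphatase and a ubiquitin ligase subunit that act on them. They are *Ccnd1*, *Ccnd2*, *Ccnd3*, *Ccne1*, *Ccne2*, *Cdk2*, *Cdk4*, *Cdk6*, *Cdc25a* and *Skp2*. The choice was by name and function and not by a cut on their values, although earlier results of these data were known. These 10 genes stand among 32493 genes in the count table, and all 10 were among the 16710 genes that passed the filter on low counts and were tested. In the mouse cortex the time that neural stem cells (NSCs) spend in G1 is linked to their choice between dividing again and forming neurons. The study reports a shorter S phase in NSCs of the embryonic cortex after loss of miR-151, with G1 and the other phases unchanged.

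D-type cyclins are made in response to growth factors and bind the kinases CDK4 and CDK6. These complexes phosphorylate RB, which then releases the E2F transcription factors, and E2F raises the genes for E-type cyclins and for DNA replication. Cyclin E with CDK2 carries the cell into S phase. CDC25A is a phosphatase that removes inhibitory phosphates from these kinases, and SKP2 is the substrate receptor of the SCF ubiquitin ligase that marks the inhibitor p27 for degradation.

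RNA was sequenced from cultured NSCs of E14.5 mice in 2 groups. The cko embryos had loxP-flanked (floxed) miR-151 alleles together with Emx1-IRES-Cre, which drives Cre recombinase in the dorsal telencephalon. The ctrl embryos had the same floxed alleles without Cre, and the sample labels call them wt. Both groups were of the C57BL/6J strain, came from the lateral ventricles and were grown for 3 generations in proliferation medium. The study describes the embryos as littermates and lists the cells both as cortical and as dissected from the lateral ventricles, whose walls also include tissue outside the dorsal telencephalon. The labels do not say that the libraries came from separate embryos, so p-values measure only the spread between these libraries. The comparison asks how loss of the microRNA goes with the RNA levels of the G1 machinery.

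The 5 libraries compared, ctrl 1 and 3 and cko 1 to 3, held between 17883796 and 23335736 counts. A 6th column, labelled ctrl 2, equalled the mean of ctrl 1 and ctrl 3, rounded up, in 32493 of 32493 genes and was counted in no n. Levels are CPM, the count of a gene relative to the library total, after TMM scaling (normalized CPM), a floor of 3 counts lay at 0.129 to 0.168 CPM, and the lowest count of any of the 10 genes in a library was 185. Ctrl 1 and ctrl 3 differed by more than 2-fold in 713 of 14347 genes with a mean of at least 1 CPM, against 116 to 219 genes for any pair of cko libraries. Pairs of unlike genotype gave 977 to 1345 such genes. The 9 NSC markers were all detected, with a summed level of 5248 to 6485 CPM in ctrl and 7406 to 7889 CPM in cko. Markers of oligodendrocytes summed to 3120 to 3753 CPM and those of neurons to 1220 to 1374 CPM over the 5 libraries, so that the labelled NSC cultures also held these RNAs. In bulk RNA, fewer cells of a type and less RNA per cell cannot be told apart. The microRNA itself was not analysed here.

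Promoter sequence is shown for 4 genes whose windows hold an E2F site or an E-box, the motif that MYC and related factors bind, because E2F and MYC are textbook regulators of G1 genes. RefSeq windows on GRCm38.p6, from base -250 to 50 bases after a start site, were found for 7 of the 10 genes, with 9 windows in all. *Ccnd1*, *Ccnd2* and *Ccne2* had no entry. Both strands were searched for the E-box CACGTG and for the E2F sites TTTCCCGC, TTTGGCGC, TTTCGCGC and TTTGCCGC, and the 2 kinds of motif do not overlap in the lines shown. Capitals mark the motif, and each line reads 5′ to 3′ along the strand of the gene. The first line runs from base -250 to -2 of the *Cdk4* start site (chr10:127063285-127063533, plus strand), the next is the upstream end of a *Cdk6* window (chr5:3343643-3343731, plus strand), the next over the 100 bases before the *Cdc25a* start (chr9:109875479-109875578, plus strand), and the last surrounds the E2F site of the *Cdk2* window (chr10:128705173-128705202, minus strand).
Cdk4: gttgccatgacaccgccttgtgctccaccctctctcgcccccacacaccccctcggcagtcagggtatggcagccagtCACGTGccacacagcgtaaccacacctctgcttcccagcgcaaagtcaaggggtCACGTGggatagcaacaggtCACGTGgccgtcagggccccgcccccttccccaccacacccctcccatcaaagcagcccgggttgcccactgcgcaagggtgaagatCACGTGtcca
Cdk6: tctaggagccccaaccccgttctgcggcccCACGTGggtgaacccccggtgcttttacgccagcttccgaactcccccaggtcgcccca
Cdc25a: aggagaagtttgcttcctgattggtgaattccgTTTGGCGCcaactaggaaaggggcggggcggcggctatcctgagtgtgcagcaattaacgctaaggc
Cdk2: aaccaggaactGCGGGAAAgttgtgcagct

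The *Cdk4* window held 4 E-boxes, and the *Cdk6* window 1. Among all 32817 windows, 7.15% held an E-box, and among the 9 windows of the G1 genes 22.2% did. E2F sites were found in 1 *Cdc25a* window and 1 *Cdk2* window, 22.2% of the 9 windows, and in 2.26% of all windows. The *Ccne1* window held none. The start site of the *Cdk2* window, base 128705051, lies outside the annotated span of the gene, which ends at base 128705031. The *Cdk2* line shows the E2F letters of the opposite strand. The GC box GGGCGG was searched as well and is not marked in the lines. It was in 77.8% of the 9 windows of the G1 genes and in 35.6% of all windows. A match of letters is a description of the window and not a bound site.

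Among the 10 G1 genes, *Cdk4* and *Cdk6* rose in cko and 0 fell at the threshold of 0.05 on the adjusted p by edgeR. By the same rule, 7.86% of all tested genes rose and 8.57% fell. *Cdk6* alone passed the study's threshold, a log2 fold change beyond 0.9 with an unadjusted p under 0.01, which 2.39% of all genes passed upward and 4.17% downward. In 4 of the 10 genes, *Ccne2*, *Cdk4*, *Cdk6* and *Cdc25a*, each cko library lay above both ctrl libraries, and in 0 did each lie below. That lack of overlap was common, at 25.4% of all genes upward and 24.3% downward. The log2 fold change was positive in 7 of 10 genes, with a median of 0.22, where the median over all tested genes was -0.0026. None of the 3 genes with a negative value had an unadjusted p under 0.05, and DESeq2 also called 0 of the 10 genes lower.

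*Cdk6* encodes a partner kinase of the D-type cyclins that is prominent in stem and progenitor cells (ENSMUSG00000040274, chr5:3341485-3531008, plus strand). Its level was 32.6 and 27.4 normalized CPM in ctrl and 70.3, 73.6 and 81.9 CPM in cko. The cko libraries lay close together, and the lowest of them was far above the higher ctrl library. The rise was 1.33 on the log2 scale (SE 0.11, 95% CI 1.06 to 1.59, adjusted p = 0.00109 by edgeR), and *Cdk6* ranked 68 by p among 16710 genes. An antisense gene that shares 368 exon bases with *Cdk6* had at most 7 counts in any library.

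*Cdk4*, the other kinase of the D-type cyclins (ENSMUSG00000006728, chr10:127063534-127067920, plus strand), was the more abundant of the pair. It stood at 281.3 and 279.2 normalized CPM in ctrl and at 405.9, 467.9 and 442.8 CPM in cko. The ctrl libraries were almost equal, and each cko library was well above them. *Cdk4* was higher by 0.65 on the log2 scale (SE 0.086, 95% CI 0.45 to 0.85, adjusted p = 0.00435 by edgeR). *Tspan31*, which encodes a tetraspanin on the opposite strand, shares 641 exon bases, 19.7% of the exon length of *Cdk4*, and the strand setting of the counting is not given in the sources used here. *Tspan31* itself ran from 66.5 to 82.4 CPM over the 5 libraries, and its log2 fold change of 0.17 did not pass the test (adjusted p = 0.208).

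The *Cdk4* and *Cdk6* changes held in 14 of 14 alternative analyses. *Cdk6* ranged from 1.21 to 1.45 on the log2 scale with adjusted p-values of at most 0.0135, and *Cdk4* from 0.59 to 0.69 with adjusted p-values of at most 0.0377.

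**Figure D1:**
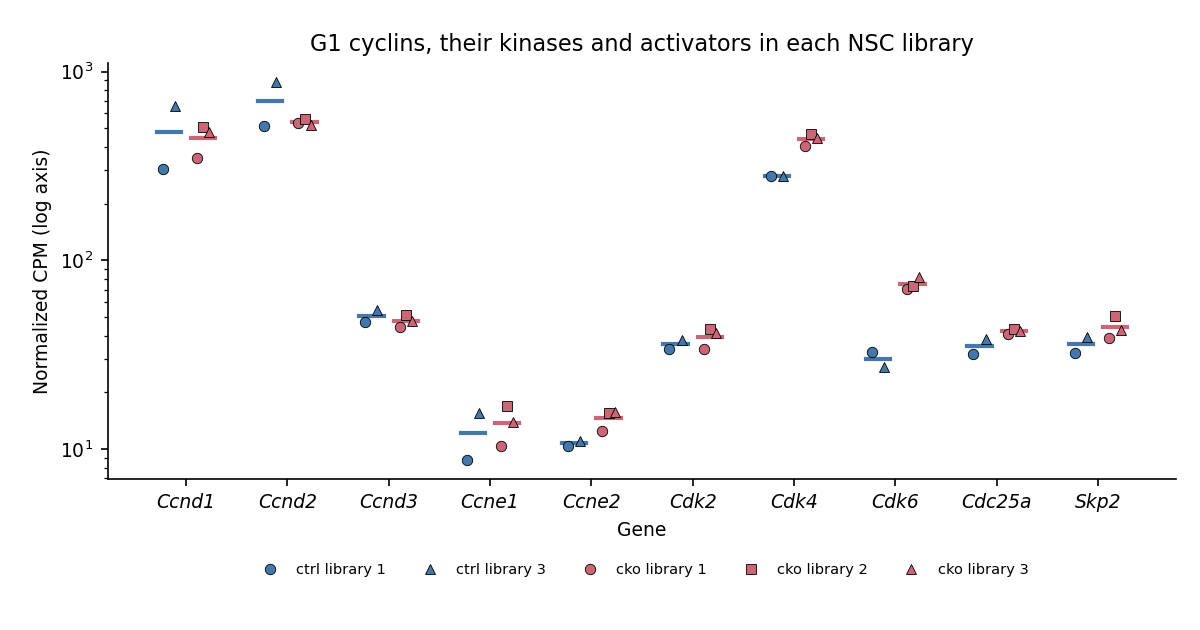
The vertical log axis gives the normalized CPM of each of the 10 G1 genes in each library, with ctrl in blue, cko in red, the marker shape for the library number and a bar for the group mean. The cko points of Cdk4 (405.9 to 467.9 CPM) and Cdk6 (70.3 to 81.9 CPM) lie clear of the ctrl points, while the ctrl points of Ccnd1 and Ccnd2 span all cko points of these genes.

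The kinases rose by unequal amounts. The ratio of *Cdk4* to *Cdk6* in normalized CPM per kb of exon was 37.2 and 43.8 in ctrl and 24.9, 27.4 and 23.3 in cko. Each cko library had a smaller excess of *Cdk4* than either ctrl library. The size of the ratio, but not its log2 difference between groups, depends on the exon lengths, 3249 bases for *Cdk4* and 13989 for *Cdk6*. On the log2 scale the ratio was 5.34 ± 0.17 (SD, n = 2) in ctrl and 4.65 ± 0.12 (SD, n = 3) in cko, a difference of -0.68 with an exact permutation p of 0.2, two-sided, which is the smallest p that 2 against 3 libraries can give. *Cdk4* remained the main kinase in both groups. Their summed level was 88.9 and 87.9 CPM per kb in ctrl and 130, 149 and 142 CPM per kb in cko, 1.59 times as high on average.

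*Cdk2* encodes the kinase that works with the E-type cyclins (ENSMUSG00000025358, chr10:128697939-128705031, minus strand). It measured 34.0 and 38.0 normalized CPM in ctrl and 33.8, 43.3 and 41.1 CPM in cko. The lowest cko library lay just under the lowest ctrl library, so the groups overlapped. Its log2 fold change was 0.13 (SE 0.13, 95% CI -0.16 to 0.42, adjusted p = 0.506), an interval that leaves out a rise as large as that of *Cdk4* at 0.65.

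Among the D-type cyclins, 0 of 3 passed the test, and the ctrl libraries lay far apart in *Ccnd1* and *Ccnd2*. *Ccnd1* (ENSMUSG00000070348, chr7:144929931-144939925, minus strand) encodes cyclin D1, a growth-factor responsive cyclin. Its level was 303.9 and 658.3 normalized CPM in ctrl and 347.2, 507.1 and 476.4 CPM in cko. All cko values lay between the ctrl values, and ctrl 1 held 0.462 times the level of ctrl 3. On the log2 scale cko differed from ctrl by -0.12 (SE 0.30, 95% CI -0.82 to 0.59, adjusted p = 0.829). *LTO1*, on the opposite strand, shares 1100 exon bases with *Ccnd1*, 23.4% of its exon length, and was far lower at 15.8 to 20.5 CPM.

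*Ccnd2* (ENSMUSG00000000184, chr6:127125162-127152193, minus strand) encodes cyclin D2, a cyclin known in cortical progenitors for its place at the basal end of radial glia. It stood at 516.1 and 882.0 normalized CPM in ctrl and at 533.0, 558.9 and 524.6 CPM in cko. The cko libraries were nearly level with each other and with ctrl 1, and ctrl 3 stood alone above them. Between the group levels the log2 fold change was -0.38 (SE 0.20, 95% CI -0.83 to 0.08, adjusted p = 0.230).

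For both genes the direction rested on 1 ctrl library. In the tests without a ctrl library, the lone ctrl sample is assumed to vary like the cko libraries, which alone supply the spread, although ctrl 1 and ctrl 3 lay far apart in these genes. Without ctrl 1, *Ccnd1* was at -0.58 on the log2 scale (adjusted p = 0.0418) and *Ccnd2* at -0.72 (adjusted p = 0.000306), and 2 of the 10 genes passed the test downward. Without ctrl 3, the values turned to 0.55 (adjusted p = 0.0579) and 0.07 (adjusted p = 0.569), and 0 passed downward. Over all alternatives the adjusted p ran from 0.0418 to 0.974 for *Ccnd1* and from 0.000306 to 0.569 for *Ccnd2*. The same ctrl libraries held 141.8 and 403.3 normalized CPM of *Cdkn1a*, the gene for the CDK inhibitor p21, against 116.7, 156.5 and 148.5 CPM in cko (log2 fold change -0.95, adjusted p = 0.121 by edgeR). Its part in the spread of the cyclins was not tested.

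*Ccnd3* encodes cyclin D3 (ENSMUSG00000034165, chr17:47505051-47599691, plus strand), the D-type cyclin better known from lymphocytes. Its levels of 47.0 and 54.5 normalized CPM in ctrl and 44.2, 51.4 and 47.8 CPM in cko overlapped. The log2 fold change was -0.08 with a narrow interval (SE 0.10, 95% CI -0.33 to 0.16, adjusted p = 0.617). *Bysl*, on the opposite strand, shares 361 exon bases with it and had 29.3 to 41.9 CPM.

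Per kb of exon, the D-type cyclins summed to 124.7 and 239.8 CPM in ctrl and to 135.4, 172.9 and 162.4 CPM in cko, and all cko values fell between those of ctrl. *Ccnd1* made up 51.7% and 58.3% of this sum in ctrl and 54.5%, 62.3% and 62.3% in cko. *Ccnd2* made up 44.0% and 39.1% in ctrl and 41.8%, 34.3% and 34.3% in cko. The shares of *Ccnd1* and *Ccnd2* overlapped between groups, with differences of 4.65 and -4.70 percentage points and an exact permutation p of 0.4 for each, two-sided. *Ccnd3* made up the rest, 2.59% to 4.29% in any library. The size of these shares depends on the exon lengths, 4709 bases for *Ccnd1* and 9409 bases for *Ccnd2*. In normalized CPM, without division by length, *Ccnd2* was above *Ccnd1* in each library.

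**Figure D2:**
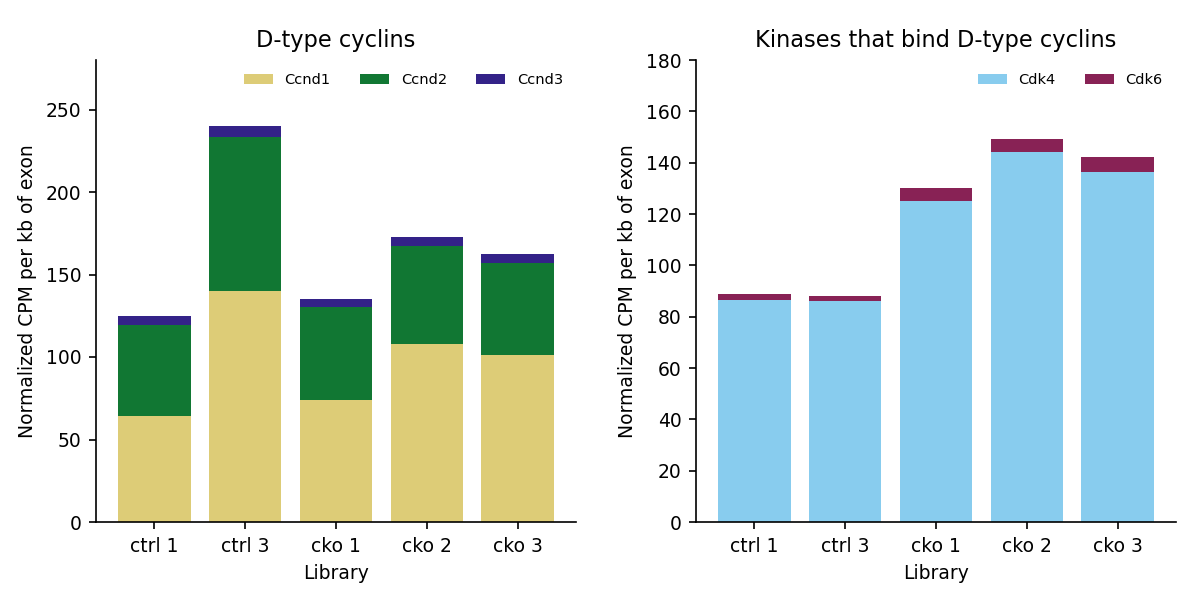
Stacked bars give normalized CPM per kb of exon in each library, for the D-type cyclins on the left and for the kinases that bind them on the right, with both vertical axes starting at 0. The cyclin sum of the ctrl libraries (124.7 and 239.8) brackets that of the cko libraries, while the kinase sum is 88.9 and 87.9 in ctrl and 130 to 149 in cko.

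Ordered by level per kb of exon, *Ccnd1* (102 CPM per kb), *Cdk4* (86.3) and *Ccnd2* (74.3) led in ctrl, and their library values overlapped. In cko the order was *Cdk4* (135), *Ccnd1* (94.2) and *Ccnd2* (57.3), and here each *Cdk4* value lay above each *Ccnd1* value and each *Ccnd1* value above each *Ccnd2* value. This order rests on the division by exon length. In normalized CPM each cko value of *Ccnd2* (524.6 to 558.9) lay above those of *Ccnd1* (347.2 to 507.1) and *Cdk4* (405.9 to 467.9). The other 7 genes were at far lower levels, from 2.15 for *Cdk6* to 5.79 CPM per kb for *Cdk2* in ctrl and from 4.17 for *Ccne2* to 6.34 CPM per kb for *Cdk2* in cko. Per kb, *Cdk6* was the lowest of the 10 in ctrl, below *Ccne2* (3.08 CPM per kb) without overlap. In normalized CPM, without division by length, *Cdk6* (32.6 and 27.4) lay above *Ccne2* (10.4 and 11.1) in ctrl. In cko *Cdk6* reached 5.38 CPM per kb and overlapped with *Ccne1*, *Ccnd3*, *Cdc25a*, *Skp2* and *Cdk2*. Its exon length of 13989 bases, the longest of the 10, includes all annotated exons, so the level per kb depends on how many of them these cells use.

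The E-type cyclins, which activate CDK2 late in G1, differed in how firmly they could be read. *Ccne2* (ENSMUSG00000028212, chr4:11191351-11204779, plus strand) encodes cyclin E2. It had 10.4 and 11.1 normalized CPM in ctrl and 12.4, 15.6 and 15.7 CPM in cko. Each cko library was above both ctrl libraries, and cko 1 was the nearest to them. The log2 fold change of 0.44 (SE 0.15, 95% CI 0.08 to 0.80) had an unadjusted p of 0.0233 and missed the threshold with an adjusted p of 0.0952 by edgeR. *Ints8*, which encodes a subunit of the Integrator complex on the opposite strand, shares 609 exon bases with *Ccne2*, 17.4% of its exon length, and was itself higher by 0.37 (adjusted p = 0.0187) at 50.2 to 68.1 CPM. Its part in the *Ccne2* counts was not tested.

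*Ccne1* (ENSMUSG00000002068, chr7:38097984-38107534, minus strand) encodes cyclin E1. Its levels were 8.78 and 15.6 normalized CPM in ctrl and 10.4, 16.9 and 14.0 CPM in cko. The groups overlapped, with the lowest library in ctrl and the highest in cko. A log2 fold change of 0.18 came with a wide interval (SE 0.29, 95% CI -0.49 to 0.85, adjusted p = 0.703), and it ran from -0.19 without ctrl 1 to 0.66 without ctrl 3. The log2 ratio of *Ccne1* to *Ccne2* per kb was 0.14 and 0.89 in ctrl and 0.13, 0.51 and 0.22 in cko, with an exact permutation p of 0.6, two-sided. Both E-type cyclins together measured 6.29 and 9.05 CPM per kb in ctrl and 7.44, 10.8 and 9.75 CPM per kb in cko.

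The activators gave small positive values. *Cdc25a* (ENSMUSG00000032477, chr9:109875579-109893895, plus strand) had 31.8 and 38.6 normalized CPM in ctrl and 41.0, 43.2 and 42.2 CPM in cko. All cko libraries were above both ctrl libraries, and they differed little from each other. The log2 fold change was 0.26 (SE 0.10, 95% CI 0.02 to 0.51) with an unadjusted p of 0.0392 and an adjusted p of 0.131. Without ctrl 3 it was 0.41 with an adjusted p of 0.0202, a value that rests on the spread of the cko libraries alone, and over all alternatives the adjusted p ran from 0.0202 to 0.442.

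*Skp2* (ENSMUSG00000054115, chr15:9111985-9155425, minus strand) stood at 32.3 and 39.4 normalized CPM in ctrl and at 39.1, 50.7 and 43.0 CPM in cko. The groups overlapped by a narrow margin, with ctrl 3 just above cko 1. Its log2 fold change of 0.31 (SE 0.14, 95% CI -0.02 to 0.63, adjusted p = 0.174) did not pass the test. *Cks1b*, which encodes the small adaptor that SKP2 needs to bind p27, rose by 0.76 (adjusted p = 0.00472).

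**Figure D3:**
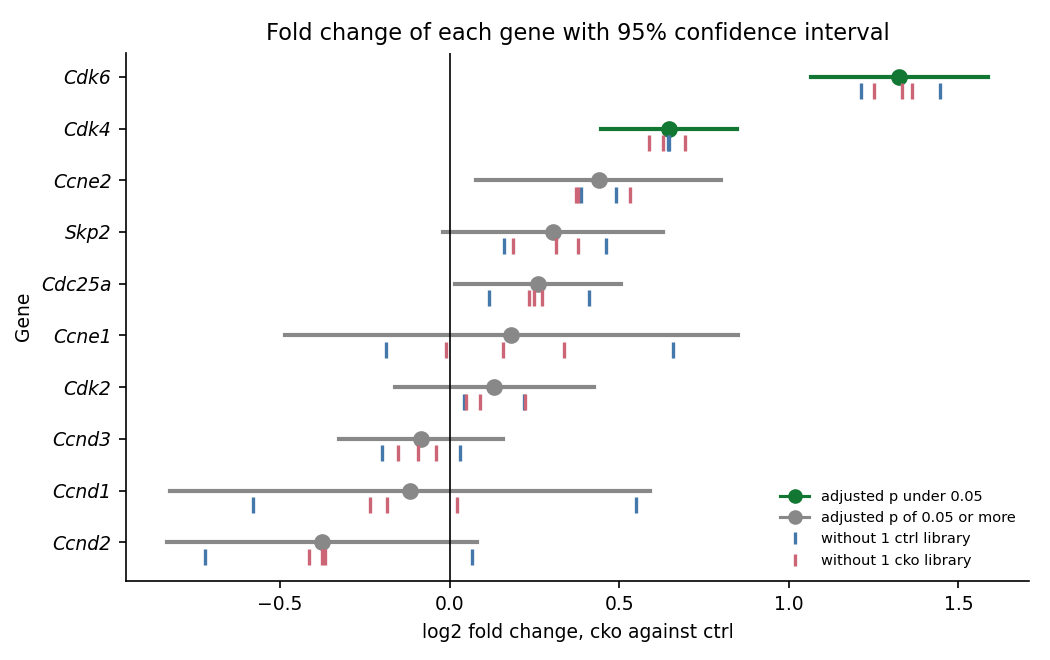
Points give the log2 fold change of cko against ctrl for each G1 gene with its 95% confidence interval, in green where the adjusted p is under 0.05, and ticks below each point give the value with 1 library left out, in blue for ctrl and red for cko. Cdk6 at 1.33 and Cdk4 at 0.65 keep their place without any 1 library, while the ctrl ticks of Ccnd1 reach from -0.58 to 0.55.

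Within a group, most G1 genes followed the same order of libraries. Ctrl 3 was above ctrl 1 in 8 of the 10 genes, where 49.4% of all tested genes were, and *Cdk4* and *Cdk6* were the exceptions. Among the cko libraries, cko 1 was the lowest in 9 of 10, where 39.4% of all tested genes were, and *Ccnd2* was the exception. The orders were not particular to the G1 genes. The summed level of 12 E2F targets of S phase entry was 495.7 normalized CPM in ctrl 1 and 703.2 CPM in ctrl 3. It was 883.1, 1235 and 1161 CPM in cko 1 to 3. S and M phase cyclins with CDK1 summed to 247.3 and 278.9 CPM in ctrl and to 531.7, 708.2 and 652.1 CPM in cko. Transcriptional cyclins and CDKs had the other order in ctrl, with 1294 CPM in ctrl 1 and 1188 CPM in ctrl 3. With 2 and 3 libraries these orders are descriptions.

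The other parts of the pathway were read from lists of known genes. Of 7 CDK inhibitors, *Cdkn2c*, which encodes the CDK4 and CDK6 inhibitor p18, rose by 0.91 (adjusted p = 0.00241), whereas *Cdkn2b*, which encodes p15 of the same family, was at -1.33 and *Cdkn1c*, which encodes p57, at -0.87 (adjusted p = 0.00229 for each). *Cdkn1b*, the gene for the SKP2 substrate p27, was at 0.36 (adjusted p = 0.0583). Inhibitors of the INK4 family that act on CDK4 and CDK6 thus stood on both sides, and the median over the 7 genes was -0.15. The count of higher inhibitors was 3 by DESeq2, without a filter on low counts and with all 6 columns, and 2 when either ctrl library was left out.

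Genes that act after the G1 kinases were read in 4 lists. Of 13 genes of the RB family and the E2F and DP factors, 5 rose, *Rbl1* by 0.55, *E2f2* by 0.83, *E2f7* by 1.39, *E2f8* and *Tfdp1*, and *E2f5* fell, at -0.41. *E2f7* and *E2f8* encode E2F factors that repress transcription. Of 12 E2F targets of S phase entry, 8 rose, among them the replicative helicase genes *Mcm4* by 0.74, *Mcm5* by 1.05, *Mcm6* by 0.78 and *Mcm7* by 0.82, and the median over the 12 was 0.79. All 5 genes of the S and M phase cyclins and CDK1 rose, with *Ccna2* at 1.20, *Ccnb1* at 1.33, *Ccnb2* at 1.47 and *Ccnf* at 1.02. In the list of inhibitory phosphorylation and its reversal, which holds the other members of the CDC25 family, 4 of 6 genes rose, *Cdc25b* by 0.83, *Cdc25c* by 1.23, *Wee1* by 0.66 and *Pkmyt1* by 0.92. The median of the 10 G1 genes, 0.22, was close to that of the RB and E2F list, 0.21, and below those of the other lists in this group, 0.79 to 1.29, and only *Cdk6* had a log2 fold change in the range of the S and M phase cyclins. Counts of genes fell when 1 cko library was left out. Without cko 2, and likewise without cko 3, 2 of 12 E2F targets, 1 of 13 RB and E2F genes, 1 of 6 genes of inhibitory phosphorylation and 4 of 5 S and M phase genes passed, and over all genes the count of higher genes went from 1314 to 317 and 336. The RB and E2F list had 2 higher genes without ctrl 1 and 3 without cko 1. *E2f5* no longer passed when any 1 cko library was left out.

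In the remaining lists the counts were small. Of 9 turnover factors of G1 cyclins and p27, *Cks1b* and *Rbx1*, the latter a RING subunit of SCF at 0.37, rose, and 1 of 9 did when any 1 cko library was left out. Of the 3 genes of the CDK-activating kinase, 0 passed in either direction by edgeR, by DESeq2 or at an unadjusted p under 0.05, 2 passed by edgeR with all 6 columns, and their log2 fold changes ran from -0.03 to 0.23. Of 12 cyclins and CDKs that act in transcription, *Ccnc* was higher by 0.33 and *Ccnl2* lower, at -0.47, and the call of *Ccnc* was lost when any 1 library was left out and that of *Ccnl2* without cko 2 or without cko 3. Of 8 transcription factors known to raise D-type cyclins, 6 were tested, and *Tcf7l2*, a factor of the WNT pathway, and *Gli2*, a factor of the Hedgehog pathway, were lower, at -1.14 and -1.08, with 1 of the pair passing without cko 2 or without cko 3. *Myc* was at -0.29 (adjusted p = 0.208) and *Mycn* at 0.04.

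**Figure D4:**
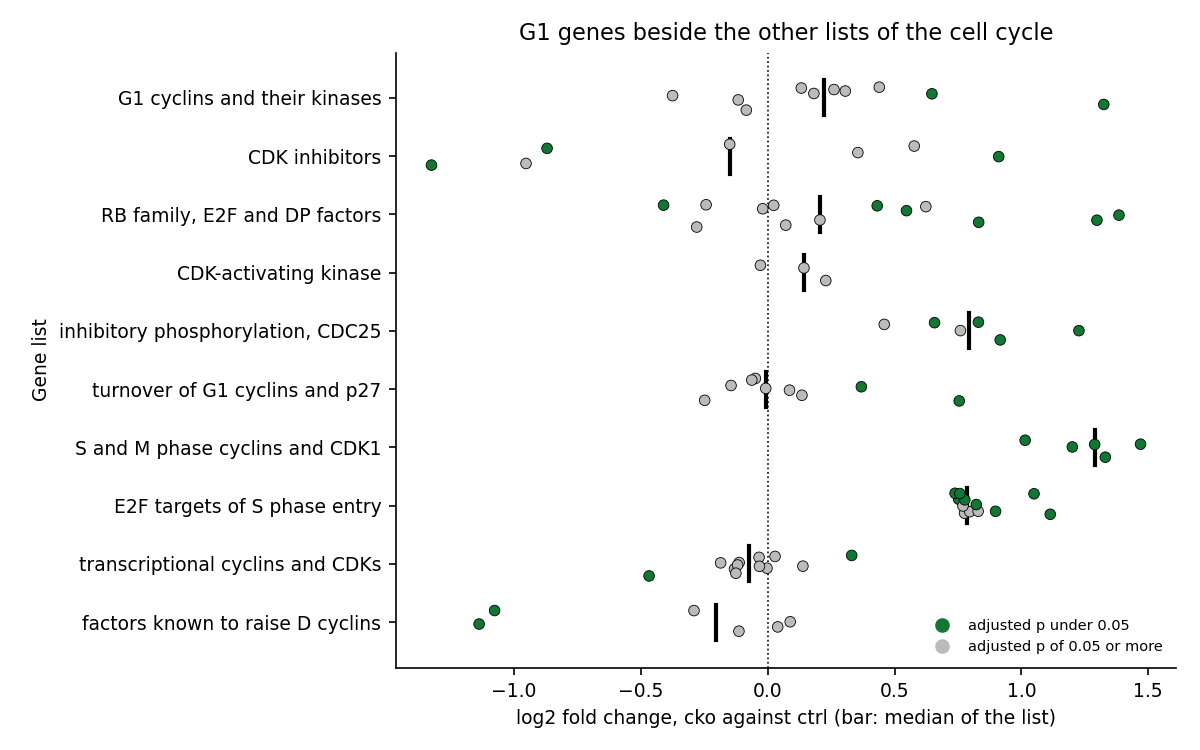
Each point is the log2 fold change of 1 tested gene, cko against ctrl, in 10 lists of the cell cycle, in green where the adjusted p is under 0.05, and black bars mark the median of each list. The G1 genes have a median of 0.22, between CDK inhibitors at -0.15 and S and M phase cyclins with CDK1 at 1.29.

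Markers of cell state moved with genotype beside *Cdk4* and *Cdk6*. The 5 proliferation markers, among them *Mki67* at 1.30 and *Top2a* at 1.21, all rose, and their sum was 645.3 and 720.3 normalized CPM in ctrl and 1310 to 1716 CPM in cko. Astrocyte markers summed to 2934 to 3685 CPM in ctrl and 1517 to 2138 CPM in cko, with 4 of 7 lower at an adjusted p under 0.05 by edgeR and 1 of 7 without cko 2, 2 of 7 without cko 3 and 7 of 7 without ctrl 3. Of 9 NSC markers *Nes*, *Prom1* and *Hes5* rose, and of 8 tested neuron markers *Elavl4* and *Syt1* rose and *Dcx* fell. Of 10 oligodendrocyte markers, the lineage factors *Olig1* and *Olig2* rose. The part of these cell types in the levels of the G1 genes was not tested. Microglial markers summed to at most 0.800 CPM in any library, with *Cx3cr1* and *Tmem119* at 0 in all 5. Endothelial and mural markers summed to 5.55 to 7.40 CPM, with *Cdh5* at 0, and 0 of the 3 tested passed by edgeR, by DESeq2 or at an unadjusted p under 0.05. Meningeal and fibroblast markers summed to 164.2 to 271.7 CPM, nearly all of it from *Pdgfra*, which oligodendrocyte precursors also express and which had 145.3 to 267.7 CPM. Of the 3 tested, *Foxc1* fell, from 10.7 and 15.3 CPM in ctrl to 3.25, 3.60 and 3.86 CPM in cko.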

How the data were processed

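RNA-seq reads of NSCs were, per the paper's methods, filtered and aligned by HISAT2 to mm10, whereas the submitters' processing notes name GRCm39. The authors deposited raw counts per gene, without normalization, in 6 columns. The counting tool, the annotation and the strand setting are not given in the sources used here, so genes that overlap on opposite strands are uncertain. Columns were assigned to samples by name, and the column labelled ctrl 2 was left out because it is the rounded mean of the other ctrl columns.

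Genes with few counts were removed by filterByExpr of edgeR 4.0.16 (R 4.3.3). TMM factors scaled the libraries, and edgeR's quasi-likelihood test compared 2 ctrl with 3 cko libraries, with Benjamini-Hochberg adjustment over all 16710 tested genes. Calls were made at an adjusted p under 0.05 and at the study's threshold. Ratios and shares within a library were compared by exact permutation tests in scipy 1.17.1. Levels per kb used the summed length of all annotated exons in GENCODE M21 on GRCm38, which matched all but 664 gene IDs. Alternatives were DESeq2 1.42.0, median-of-ratios factors, other filters, each library left out, a replicate block and all 6 columns, and the steps were tested on simulated data. Figures were drawn with matplotlib 3.10.9.

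The genes and lists were chosen with earlier results of these data known. Named genes are the 10 G1 genes and up to 4 called genes of each pathway list, in the order of the list. *Cdkn1a*, *Cdkn1b*, *E2f8*, *Tfdp1*, *Myc*, *Mycn*, the overlapping genes and the named markers were chosen after their values were seen. Floors and intervals of counts cover counting error only. Some results of the oligodendrocyte marker list are not reported here.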

Additional observations from a re-analysis of the deposited data

How the results depend on the processing

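Over 14 alternatives, 123 of 140 values of the G1 genes kept their direction and their side of the threshold, 11 passed it in addition, 0 lost it and 6 turned direction. With 1 library left out, the log2 fold change ran from -0.58 to 0.55 for *Ccnd1*, from -0.72 to 0.066 for *Ccnd2*, from -0.20 to 0.031 for *Ccnd3* and from -0.19 to 0.66 for *Ccne1*. The turns came without ctrl 3 for *Ccnd1*, *Ccnd2* and *Ccnd3*, without cko 1 for *Ccnd1* at 0.02, and without ctrl 1 or cko 2 for *Ccne1*. The count of lower G1 genes then ran from 0 to 2 and that of higher ones from 2 to 3, and without a filter on low counts 1 was lower, *Ccnd2* at -0.38 (adjusted p = 0.000473 by edgeR, against 0.000306 to 0.569 over its alternatives). The difference in the *Ccnd3* share ran from -0.80 to 0.90 percentage points and that in the log2 ratio of *Ccne1* to *Ccne2* from -0.60 to 0.14. The cause of these shifts was not tested.

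With all 6 columns, which count a mean as a library, 4 G1 genes were higher by edgeR and 4 by DESeq2, *Ccne2* and *Cdc25a* being added, and 5 with the replicate block, which added *Skp2*. Over all genes, higher genes then numbered 2865, 2564 and 2675 and lower ones 2794, 2520 and 2673 in these 3 analyses. With 1 library left out, higher genes ran from 317 to 1812 and lower ones from 416 to 2062, and without a filter 2237 were lower. At the study's threshold the counts over the alternatives ran from 271 to 510 higher and from 504 to 1017 lower.

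With a replicate block on the 5 libraries, 2 G1 genes were higher and 0 lower, *Cdk4* at 0.60 and *Cdk6* at 1.34, and 918 genes were higher and 1065 lower over all genes. The deviations of same-numbered libraries correlated at 0.200 for number 1 and 0.0568 for number 3, and 2 ctrl libraries give deviations that mirror each other. The study describes littermates, but which libraries share a litter is not given in the sources used here, so the numbers were not taken as pairs. With the block, *Cdkn1a* was lower, at -0.87 (adjusted p = 0.0245 by edgeR), *E2f5* no longer passed (adjusted p = 0.0792), and 2 CDK inhibitors were higher and 3 lower. With counts of 185 or more for each G1 gene, the number of libraries and the spread of ctrl were among the limits. The unknown strand setting and the mix of cell types in bulk RNA were others.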
